A study of Mus musculus with 8 samples.

Results

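The 42 genes described here are 20 genes of DNA replication (Mcm2 to Mcm7, Pcna, Rrm1, Rrm2, Tyms, Gins2, Cdc6, Cdc45, Slbp, Fen1, Rfc2, Pola1, Prim1, Tipin and Clspn) and 22 genes of mitosis (Mki67, Top2a, Cenpa, Cenpe, Cenpf, Ccnb1, Ccnb2, Cdk1, Cdc20, Birc5, Ube2c, Hmmr, Tpx2, Nusap1, Aurka, Aurkb, Bub1, Bub1b, Plk1, Kif11, Kif23 and Tacc3). They were taken by name from a list of cycle genes, and every one of them was found among the 32502 genes of the 8 count tables. The question asked of them was which cells of a mouse glioma and of the brain around it carried transcripts of dividing cells, and whether their amount differed by tumour stage and by host genotype.

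The study dissociated brains into single cells and counted RNA by Drop-seq, which captures the 3′ ends of messenger RNA from each cell in a droplet and counts molecules by unique molecular identifiers (UMIs). GL261 cells, an established mouse glioma line, were implanted into the brains of mice of the strain labelled C57BL/6 (C57BL/6N in the study's methods), 500 cells per mouse, and the same line went into both kinds of host. Hosts were wild type (WT) or knock-out (KO) for Irg1, also named Acod1, the enzyme that makes itaconate. There was 1 library for each genotype without a tumour (naive) and at each tumour volume, early (5 to 10 mm3), intermediate (20 to 25 mm3) and late (30 to 35 mm3), so a stage of 1 genotype was 1 mouse. The naive libraries were labelled with 2 mice each. The KO allele, an insertion cassette, was carried by the host and not brought in with the implanted line, and the labels name no further treatment and no ages. By the study's account the early WT and intermediate KO mice were female and the other tumour-bearing mice male, so genotype and sex cannot be told apart at those stages. The deposited tables are numbered in 2 sets of 4, WT intermediate, KO early, WT late and KO late in 1 set and WT early, KO intermediate and both naive libraries in the other. Among tumour-bearing libraries these sets divide the mice as sex does, so the 2 cannot be told apart, and whether they were separate runs is not given in the sources used here. With 1 library per genotype and stage, p-values measure the spread between these libraries only.

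A dividing cell first copies its DNA and then separates the copies. In late G1 phase Cdc6 and the Mcm2 to Mcm7 ring are loaded onto replication origins, Cdc45 and the GINS complex (Gins2) turn the ring into a working helicase, primase and polymerase alpha (Prim1, Pola1) start the new strands, and Pcna, loaded by the Rfc complex (Rfc2), holds the polymerases on DNA. Rrm1, Rrm2 and Tyms supply deoxynucleotides, Slbp processes histone messenger RNA, and Tipin and Clspn guard the fork. Entry into mitosis is driven by Cdk1 with cyclin B (Ccnb1, Ccnb2), while Cdc20 and Ube2c direct the anaphase-promoting complex that ends it. Most brain cells have left the cycle for good, mature neurons and oligodendrocytes among them, whereas neuroblasts, oligodendrocyte precursors (OPCs), activated microglia, macrophages and activated lymphocytes can divide.

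After cells with at least 1000 detected genes were kept, 5698 cells remained, from 454 in each naive library to 1000 in the WT intermediate library. The median depth per cell ran from 2597.5 UMIs in the WT naive library to 5637.5 UMIs in the WT intermediate library, and the tables summed to between 2885345 and 9950713 UMIs. Cells were clustered without the cycle genes and named by marker genes, which gave 3396 tumour cells, 434 macrophage-like cells, 378 microglia-like cells, 369 oligodendrocytes, 294 astrocytes, 282 endothelial cells, 186 lymphocytes and 7 smaller types. Any 2 libraries shared at most 2 cell barcodes. Of the cells in the tumour class, 5 came from naive libraries, so this class is given from the 3391 cells of tumour-bearing libraries unless stated.

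Acod1 itself was checked in every library first. Among microglia-like and macrophage-like cells its level was 0, 1.62, 0.490 and 0.199 UMIs per 10,000 in the libraries labelled WT naive, early, intermediate and late, and 0, 0.556, 0.116 and 0.613 in those labelled KO. UMIs were thus present in every tumour-bearing library labelled KO, and at the late stage the library labelled KO was the higher one. The files do not show whether the cassette leaves the counted 3′ end intact, so these counts do not check the labels. The study genotyped its mice by PCR, and below WT and KO mean libraries labelled so.

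Replication and mitosis genes are known to be switched by different promoter elements, E2F sites in the former and the cell cycle homology region (CHR), often with CCAAT boxes, in the latter. Windows of 300 bases around the start of the gene (RefSeq, GRCm38.p6, 250 before and 50 after) were at hand for 36 of the 42 genes. An E2F match (TTTGGCGC, TTTCCCGC, TTTGCCGC or TTTCGCGC, either strand) lay in 7 of 16 replication windows (43.8%) and 1 of 20 mitosis windows (5%), against 2.60% of all 27025 genes with a window. A CHR match (TTTGAA or TTCGAA, either strand) lay in 4 of 16 (25%) and 15 of 20 windows (75%), against 21.7% of all genes. The CCAAT box (CCAAT or ATTGG) lay in 13 of 16 (81.2%) and 17 of 20 (85%), against 41.1%. E2F and CHR matches thus differed in frequency between the groups and the CCAAT box hardly did, and a match of letters is not a bound site. The mitosis gene with the E2F match was Cdk1. The 160 bases just before the start are shown for 2 genes of each kind, 5′ to 3′ on the strand of the gene, with every E2F, CHR and CCAAT match in capitals, some overlapping. Of these, Mcm6 stands outside the genes named for the tests and was picked for its matches. Mcm5, a subunit of the helicase ring, (chr8:75109349-75109508, plus strand) and Mcm6, another subunit of the ring, (chr1:128359706-128359865, minus strand) hold E2F and CCAAT matches:
Mcm5: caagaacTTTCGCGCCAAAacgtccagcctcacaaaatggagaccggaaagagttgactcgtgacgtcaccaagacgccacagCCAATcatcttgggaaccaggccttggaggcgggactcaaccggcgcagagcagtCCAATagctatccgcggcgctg
Mcm6: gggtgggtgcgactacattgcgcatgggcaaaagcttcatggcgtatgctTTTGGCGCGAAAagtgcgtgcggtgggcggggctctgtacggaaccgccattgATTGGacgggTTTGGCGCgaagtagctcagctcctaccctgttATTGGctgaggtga
Top2a, which untangles sister chromatids, (chr11:99024190-99024349, minus strand) and Cdk1 (chr10:69352913-69353072, minus strand) hold CHR and CCAAT matches, and Cdk1 also TTTCGCGC of the E2F kind:
Top2a: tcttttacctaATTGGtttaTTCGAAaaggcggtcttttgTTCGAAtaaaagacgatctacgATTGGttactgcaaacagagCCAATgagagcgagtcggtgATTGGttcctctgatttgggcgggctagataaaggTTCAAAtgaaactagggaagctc
Cdk1: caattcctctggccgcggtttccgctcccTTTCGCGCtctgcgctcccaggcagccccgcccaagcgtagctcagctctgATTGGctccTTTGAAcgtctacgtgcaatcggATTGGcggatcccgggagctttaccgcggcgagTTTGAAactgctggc

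Tumour cells, lymphocytes and neuroblast-like cells carried the most transcripts of these genes, macrophage-like and microglia-like cells carried less, and oligodendrocytes and neuron-like cells carried few. Mural and fibroblast-like, dendritic-like and endothelial cells, each in few cells, exceeded macrophage-like and microglia-like cells in mitosis transcripts in some libraries and not in others. Levels are UMIs of the 20 replication genes or the 22 mitosis genes per 10,000 UMIs of the summed cells, with exact 95% Poisson intervals, which cover counting error only. Over the tumour-bearing libraries the mitosis level was 58.0 (57.8 to 58.3) in tumour cells, 41.4 (39.9 to 42.9) in lymphocytes, 14.2 (13.7 to 14.7) in macrophage-like cells and 10.5 (9.72 to 11.3) in microglia-like cells. It was 2.06 (1.75 to 2.41) in oligodendrocytes and 0.926 (0.478 to 1.62) in neuron-like cells, which served as background because these cells do not divide. In single libraries with at least 5 cells the mitosis level was 2.00 and 38.2 in mural and fibroblast-like cells. It ran from 3.45 to 28.6 in dendritic-like cells and from 3.06 to 16.9 in endothelial cells. The replication level was 21.7 (21.5 to 21.8) in tumour cells and 23.9 (22.8 to 25.0) in lymphocytes, while oligodendrocytes had 5.25 (4.75 to 5.80). The background was thus higher for replication than for mitosis genes, and Pcna alone gave 95 of the 397 replication UMIs in oligodendrocytes.

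The ratio of mitosis to replication UMIs differed between the types, and tumour cells were not alone in a high one. Summed over the tumour-bearing libraries it was 2.96 in mural and fibroblast-like cells (30 cells), 2.68 in tumour cells, 2.52 in neuroblast-like cells (16 cells), 1.86 in dendritic-like cells (40 cells), 1.76 in endothelial cells, 1.73 in lymphocytes, 1.48 in astrocytes, 1.24 in macrophage-like cells, 1.19 in microglia-like cells, 0.577 in OPCs and 0.393 in oligodendrocytes. Over libraries with at least 20 UMIs of each group it ran from 2.23 to 3.19 in tumour cells, 0.825 to 2.05 in lymphocytes, 0.615 to 1.64 in macrophage-like cells, 0.953 to 1.51 in microglia-like cells and 0.220 to 0.703 in oligodendrocytes. In mural and fibroblast-like cells 2 libraries gave 2.02 to 2.897, in dendritic-like cells 2 gave 0.853 to 3.79 and in endothelial cells 2 gave 0.909 to 2.37. The tumour range thus lay above those of lymphocytes, macrophage-like cells, microglia-like cells and oligodendrocytes but overlapped the ranges of mural and fibroblast-like and of endothelial cells and lay within that of dendritic-like cells, whereas those of lymphocytes, macrophage-like and microglia-like cells overlapped each other. Replication genes outweighed mitosis genes in WT intermediate (0.615) and WT late (0.789) for macrophage-like cells, in WT late (0.953) for microglia-like cells and in WT intermediate (0.825) for lymphocytes. The plot of summed levels by type shows both groups of genes.

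**Figure D1:**
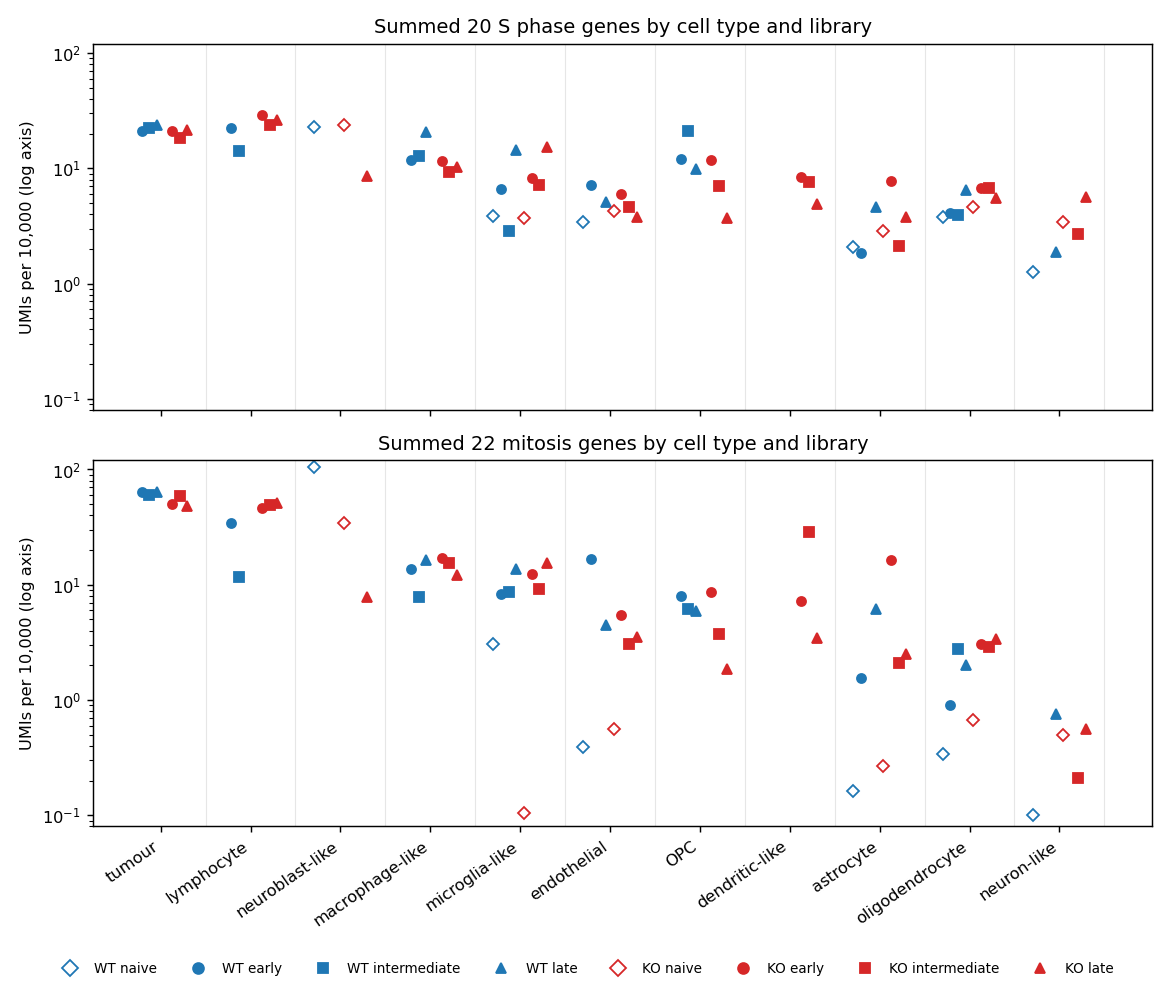
UMIs of the 20 replication genes and of the 22 mitosis genes per 10,000 UMIs (log axis) in each cell type, 1 point per library with at least 5 cells of the type, with a value of 0 drawn at 0.1. Tumour cells of the 6 tumour-bearing libraries lie between 48.1 and 64.0 for the mitosis genes, and oligodendrocytes of the same libraries between 0.901 and 3.40.

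Counting cells gave the same order of tumour cells, lymphocytes, macrophage-like cells and microglia-like cells. Types differed in depth, with medians of 4875 UMIs in tumour cells, 2877 in lymphocytes, 3175 in macrophage-like cells and 2724 in oligodendrocytes of the tumour-bearing libraries. Each cell was therefore thinned to 1500 UMIs, and a cell was counted when at least 3 UMIs of a gene group remained. Intervals are exact Clopper-Pearson 95% intervals of counting error. At least 3 mitosis UMIs were found in 63.7% (2103 of 3303 cells, 62.0% to 65.3%) of tumour cells and 39.7% (73 of 184 cells, 32.6% to 47.1%) of lymphocytes. The share was 18.7% (81 of 433 cells, 15.1% to 22.7%) in macrophage-like cells and 10.1% (18 of 178 cells, 6.10% to 15.5%) in microglia-like cells. Of all 30 mural and fibroblast-like cells 9 were counted, of all 40 dendritic-like cells 5 and of all 99 endothelial cells 10. Oligodendrocytes gave 1.78% (4 of 225 cells, 0.486% to 4.49%) and neuron-like cells 1 of 25. Over single libraries with at least 5 cells, the share ran from 55.8% to 71.5% in tumour cells and 34.8% to 55.2% in lymphocytes. It ran from 12.3% to 24.4% in macrophage-like cells, 2.27% to 20% in microglia-like cells and 0% to 6.25% in oligodendrocytes. The ranges of tumour cells, lymphocytes and macrophage-like cells thus lay above that of oligodendrocytes, and the microglia-like range overlapped it.

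Before thinning the shares were 80.6% in tumour cells, 51.4% in lymphocytes, 33.9% in macrophage-like cells, 20.2% in microglia-like cells and 7.11% in oligodendrocytes. The number of cells just under the limit, with 2 UMIs, was 237 tumour cells, 8 lymphocytes, 35 macrophage-like cells and 12 oligodendrocytes, and 220, 10, 22 and 3 held exactly 3. The class is therefore a range and not a cell type. The cells counted held 95.7% of the mitosis UMIs in tumour cells, 93.9% in lymphocytes, 80.0% in macrophage-like cells and 74.3% in microglia-like cells. In oligodendrocytes of the same libraries they held 14.1%, with 4 of 225 cells counted and 156 mitosis UMIs in the type. Cells were counted by these same UMIs, so these percentages follow largely from the level of each type and are no separate observation. In the naive libraries, 2 of 144 oligodendrocytes were at the limit and held 17 of the 24 mitosis UMIs (70.8%).

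Replication UMIs reached the limit in 50.2% (1657 of 3303 cells, 48.4% to 51.9%) of tumour cells, 38.0% (70 of 184 cells, 31.0% to 45.5%) of lymphocytes, 20.8% (90 of 433 cells, 17.1% to 24.9%) of macrophage-like cells and 4% (9 of 225 cells, 1.85% to 7.46%) of oligodendrocytes. Without thinning these shares were 80.2%, 53.5%, 42.7% and 21.3%, and the step up in oligodendrocytes shows how far depth alone moved the replication count. Among the 3303 tumour cells deep enough, 1321 held both groups, 336 only replication UMIs and 782 only mitosis UMIs at the limit. Among 184 lymphocytes the numbers were 46, 24 and 27, so in both types cells with mitosis UMIs mostly held replication UMIs as well. Free RNA in the droplets may add to such counts, which was not tested, and no cell was called cycling from them alone.

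**Figure D2:**
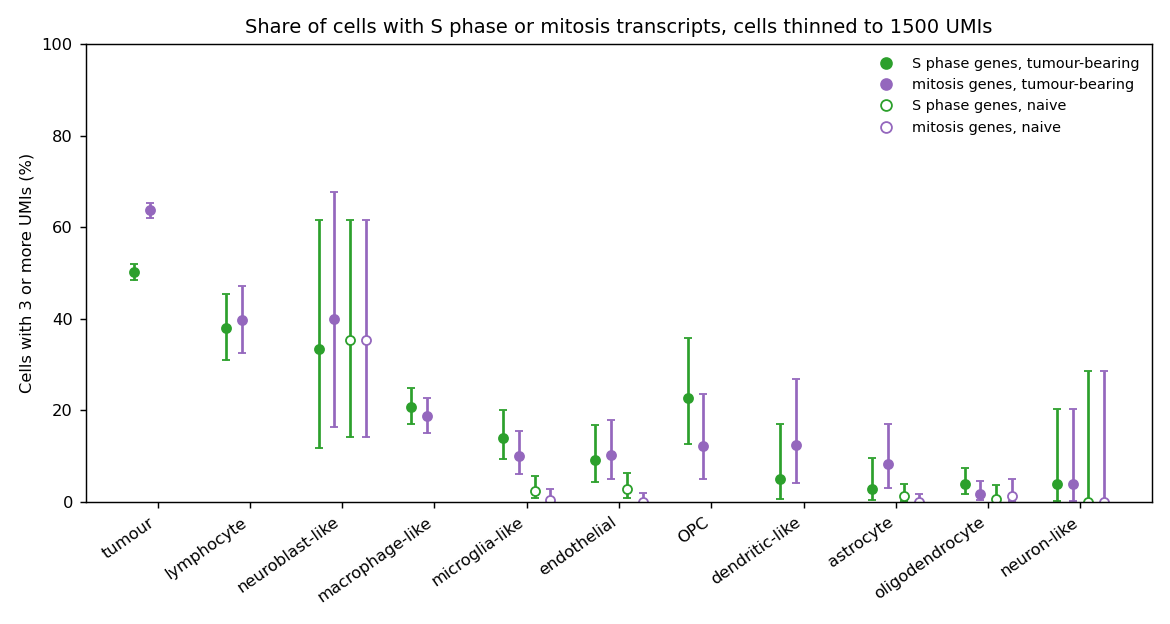
Percent of cells with at least 3 UMIs of the replication genes or of the mitosis genes after thinning to 1500 UMIs, with exact 95% binomial intervals, for groups of at least 10 cells from tumour-bearing and from naive libraries. Tumour cells reach 63.7% for mitosis and oligodendrocytes of the same libraries 1.78%.

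The genes were then tested one by one against oligodendrocytes, on UMIs summed per library and cell type with the library as a block (quasi-likelihood test of edgeR, p adjusted by Benjamini-Hochberg over 5655 genes that passed the low-count filter, 51 sums). Of the 42 genes 31 passed that filter, 13 of replication and 18 of mitosis. In tumour cells 28 of these were higher and none lower, where 31.5% of all tested genes were higher and 26.7% lower. Since the filter keeps genes that are high in some type, the same fit without it is the one to read, and there 42 of 42 were higher, where 27.8% of 18459 genes were. Log2 differences follow TMM scaling, under which the median of all tested genes was 0.16 for tumour cells, against 0.40 with total UMIs and -0.30 with the DESeq2 size factors. The count of higher members was 31 and 28 under those scalings.

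Among the replication genes in tumour cells, values per library in UMIs per 10,000 are given in the order early, intermediate and late. Mcm5 had 0.691, 0.953 and 0.988 (WT) and 0.980, 0.847 and 0.803 (KO), and every oligodendrocyte sum was below each of these, with at most 0.277. Mcm5 was among the 11 genes that the filter removed. Of the 5 licensing genes that passed, 4 were higher than in oligodendrocytes, with log2 differences from 1.85 ± 0.36 for Mcm7 to 3.29 ± 0.46 for Mcm2, while Mcm4 gave 0.67 ± 0.36 (adjusted p = 0.101).

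Pcna, the sliding clamp, had 2.33, 1.82 and 2.44 (WT) and 1.74, 2.06 and 2.20 (KO) in tumour cells. Oligodendrocytes had between 0.538 and 1.93, so the groups overlapped, and the log2 difference was 0.59 ± 0.27 (edgeR adjusted p = 0.0524). Rfc2 of the clamp loader gave 0.44 ± 0.30 (adjusted p = 0.216), whereas Pola1 with 2.91 ± 0.40 and Prim1 with 1.12 ± 0.33 were higher. Both clamp genes are also used in DNA repair, which goes on outside S phase.

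Rrm2, the regulated subunit of ribonucleotide reductase, had 0.461, 0.696 and 0.557 (WT) and 0.483, 0.385 and 0.4659 (KO), and oligodendrocytes at most 0.191. Tyms, thymidylate synthase, had 1.81, 1.60 and 1.94 (WT) and 1.63, 1.20 and 1.25 (KO) and was 3.56 ± 0.42 higher on the log2 scale, with no overlap between the groups. Slbp, the histone messenger RNA binding protein, had 0.915, 0.584 and 0.678 (WT) and 0.931, 0.592 and 0.562 (KO), against at most 0.341 in oligodendrocytes. In tumour cells Rrm1 was higher by 1.71 ± 0.33, and the fork protection genes Tipin and Clspn were higher by 1.81 ± 0.32 and 3.38 ± 0.51. The differences in the replication group ran from 0.44 to 3.56, below most of those in the mitosis group.

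The 18 mitosis genes that passed the filter were all higher in tumour cells, by 3.03 (Tacc3, a spindle protein) to 5.96 (Cdc20). Mki67, the chromosome surface protein behind the Ki-67 stain, had 5.11, 5.35 and 4.30 (WT) and 2.84, 4.48 and 3.49 (KO) UMIs per 10,000, and Top2a had 14.2, 11.5 and 11.3 (WT) and 10.2, 12.6 and 10.6 (KO). Oligodendrocytes reached at most 0.272 for Mki67 and 0.953 for Top2a, so neither gene overlapped between the types, and the log2 differences were 5.00 ± 0.58 and 4.67 ± 0.48. Top2a alone made up 33886 of the 169312 mitosis UMIs of tumour cells.

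Cdk1, the mitotic kinase, had 3.58, 3.76 and 4.39 (WT) and 4.31, 3.56 and 3.40 (KO), and its partner Ccnb1 had 1.82, 1.18 and 1.90 (WT) and 1.21, 1.36 and 1.08 (KO). Birc5, or survivin, of the chromosomal passenger complex had 2.98, 3.12 and 3.03 (WT) and 2.75, 2.64 and 2.37 (KO). All 3 were above every oligodendrocyte sum, with log2 differences of 4.64 ± 0.42, 4.91 ± 0.59 and 4.19 ± 0.49. The kinases Aurka and Plk1 were not in the filtered fit and had 0 UMIs in oligodendrocytes. Against a floor of 3 UMIs over that group, Plk1 was at least 19.6-fold and Aurka at least 16.0-fold higher in tumour cells.

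The anaphase genes had the largest differences together with Hmmr. Cdc20, which activates the anaphase-promoting complex, had 2.12, 2.03 and 2.58 (WT) and 2.05, 2.00 and 1.56 (KO), and Ube2c, its ubiquitin-conjugating enzyme, had 3.90, 3.03 and 3.73 (WT) and 3.62, 3.53 and 2.65 (KO). Their log2 differences to oligodendrocytes were 5.96 ± 0.55 and 5.87 ± 0.62, and Hmmr, a spindle assembly factor, gave 5.69 ± 0.55. The kinetochore genes Cenpa, Cenpe, Cenpf and Bub1 lay between 3.63 and 5.05. No mitosis gene of tumour cells was at 0 in any tumour-bearing library. In the heat map of genes by type the tumour and lymphocyte columns are filled throughout, while the mitosis rows of neuron-like cells are mostly empty, with 16 of 22 genes at 0.

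**Figure D3:**
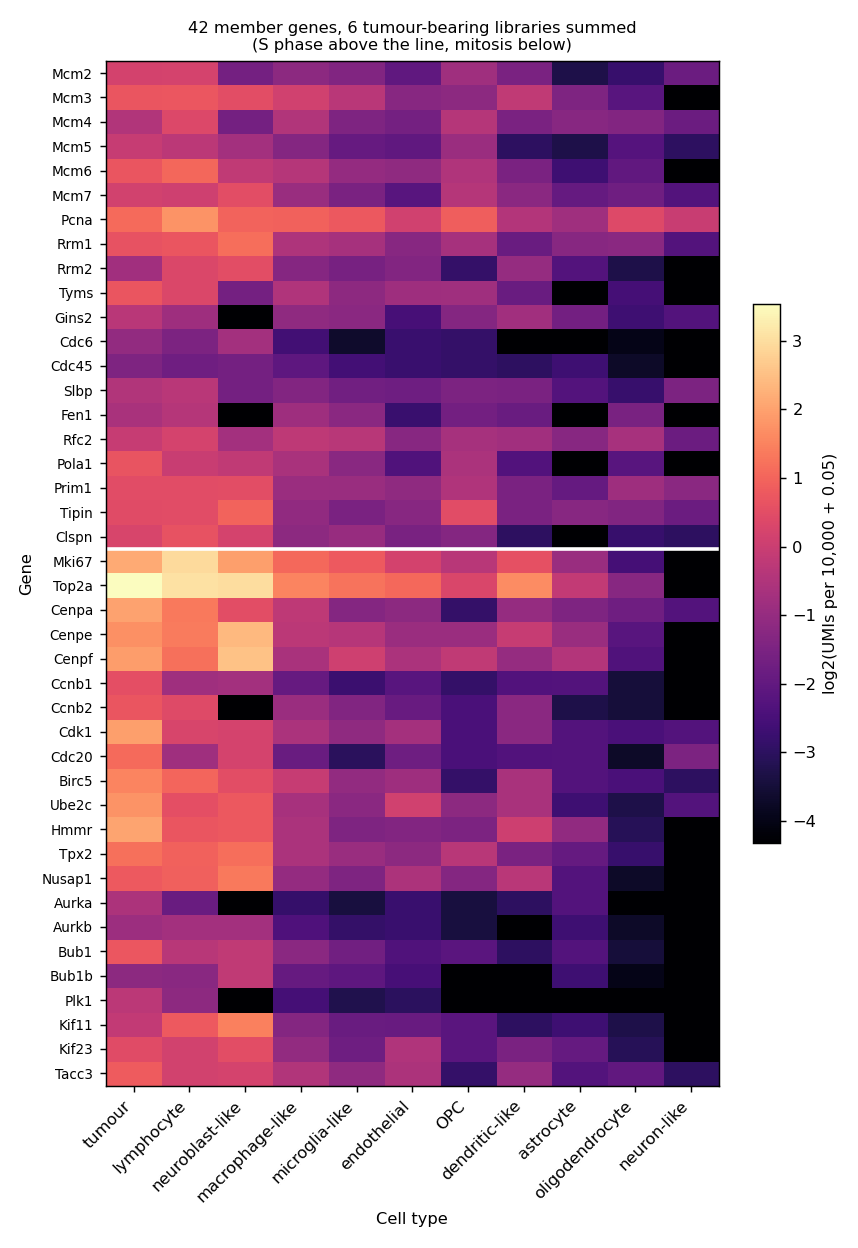
UMIs per 10,000 of each of the 42 genes (rows) in each cell type (columns), summed over the tumour-bearing libraries, on the colour scale drawn beside it. Top2a in tumour cells stands at 11.6 and in oligodendrocytes at 0.370.

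Lymphocytes, which were nearly all from tumour-bearing brains, had 30 of the 31 tested members higher than oligodendrocytes and none lower (26.5% of all genes were higher and 26.7% lower). Without the filter 41 of 42 were higher, against 16.6% of all genes. Per library the mitosis level of lymphocytes was 34.3 in WT early (69 cells), 11.7 in WT intermediate (6 cells), 10.1 in WT late (4 cells), and 46.7, 49.0 and 51.0 in KO early, intermediate and late (30, 41 and 35 cells). The low values were those of the libraries with fewest cells. Mki67 had 7.49, 0.497, 7.55, 8.00 and 9.98 in the 5 sums with at least 5 cells, WT early, WT intermediate and then KO by stage, and its log2 difference to oligodendrocytes was 5.67 ± 0.60. Nusap1, a microtubule bundling protein, with 5.88 ± 0.69 and Ccnb2 with 4.82 ± 0.69 were the other largest. Pcna was called here, at 1.25 ± 0.30, and Rfc2 alone was not, at 0.80 ± 0.36 (edgeR adjusted p = 0.0554).

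Set directly against lymphocytes in the same fit, tumour cells had 7 members higher, all of mitosis, where 28.7% of all genes were higher, and 3 lower, where 20.6% of all genes were. Both shares of the members were under the background, and without the filter 11 of 42 were higher, where 20.8% of all genes were. The 3 largest were Cdc20 (1.90 ± 0.32), Cdk1 (1.77 ± 0.30) and Ube2c (1.46 ± 0.37), followed by Hmmr, Ccnb1, Bub1 and Tacc3. Cdc20 had 0.233, 0.248, 0.451, 0.791 and 0.745 in the 5 lymphocyte sums, each below every tumour value. Lower in tumour cells were Mcm4 (-0.99 ± 0.29), the motor Kif11 (-0.96 ± 0.30) and Pcna (-0.67 ± 0.25). Mki67 was not called (-0.66 ± 0.35, adjusted p = 0.111), and Top2a gave 0.62 ± 0.36 (adjusted p = 0.154). Without WT early, which held most WT lymphocytes, 4 were higher, and without KO early 1 was lower. With cells of at least 500 genes kept, 11 were higher and 1 lower.

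**Figure D4:**
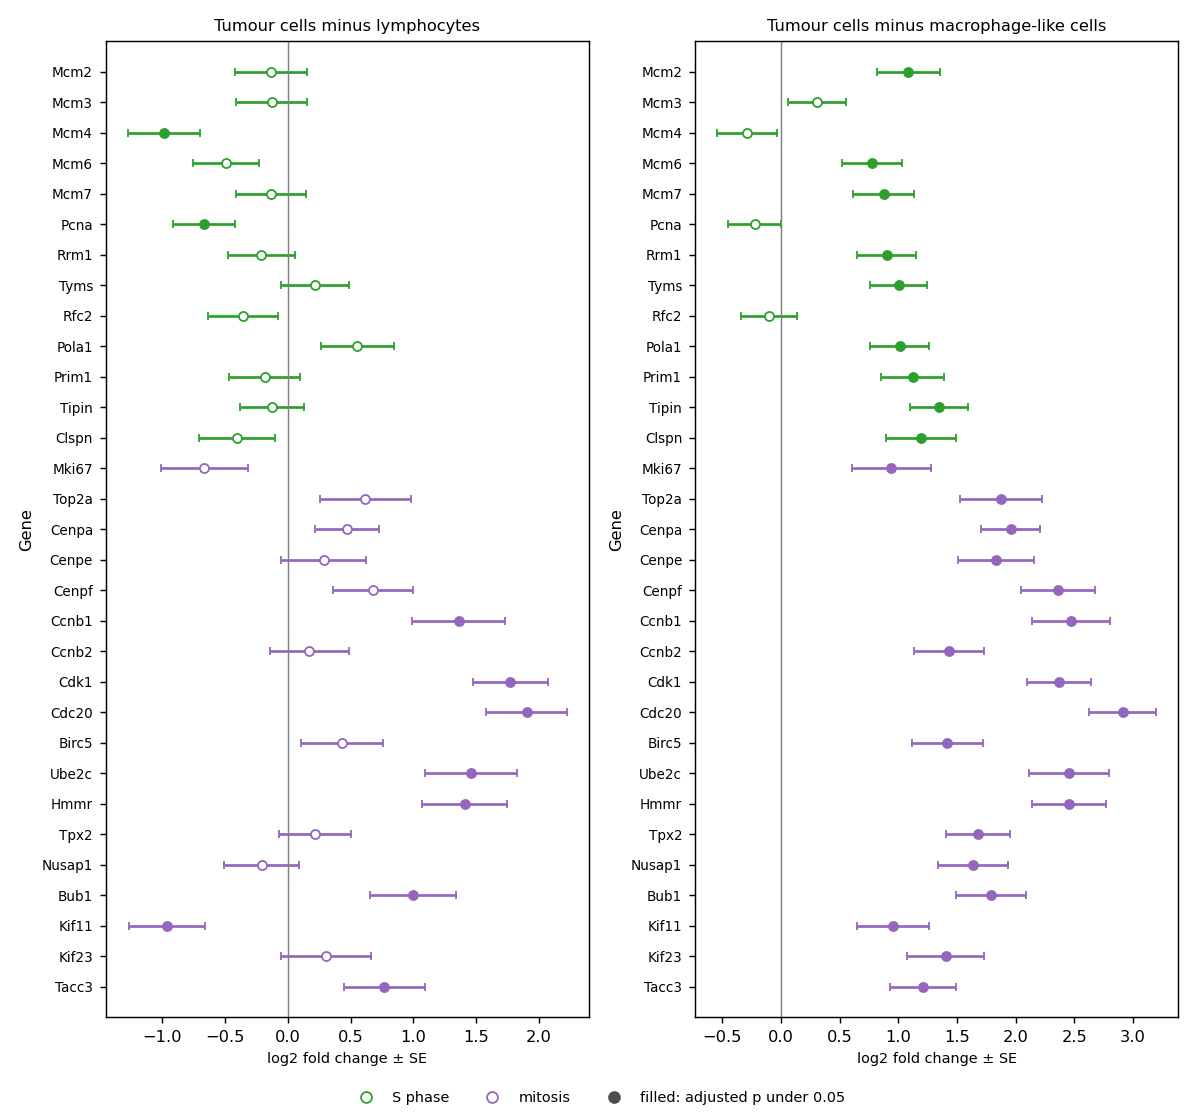
Log2 difference with its standard error for each of the 31 tested members in tumour cells against lymphocytes and against macrophage-like cells, with members past an adjusted p of 0.05 marked. Cdc20 stands highest in both, at 1.90 against lymphocytes and 2.91 against macrophage-like cells.

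Macrophage-like cells had 27 tested members higher than oligodendrocytes and none lower (30.2% of all genes were higher and 28.3% lower), and 40 of 42 without the filter, against 20.3% of all genes. Their mitosis level was 13.7, 7.90 and 16.2 (WT) and 17.2, 15.4 and 12.03 (KO), and the lowest value was that of WT intermediate with 16 cells. Mki67 had 2.46, 1.42 and 1.78 (WT) and 1.76, 2.13 and 1.98 (KO) and led with 4.06 ± 0.63, before Nusap1 (4.04 ± 0.82) and Ccnb2 (3.56 ± 0.74). Every macrophage-like value of Mki67 was above every oligodendrocyte value and below every tumour value. Rrm1, Rfc2, Tipin and Prim1 were not called.

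Tumour cells had 27 members higher than macrophage-like cells, 9 of replication and 18 of mitosis, and none lower (34.4% of all genes were higher and 25.7% lower). Without the filter 33 of 42 were higher, against 26.7% of all genes. The largest differences were those of Cdc20 (2.91 ± 0.29), Ccnb1 (2.48 ± 0.33) and Hmmr (2.46 ± 0.32). Mki67 gave 0.94 ± 0.33, Top2a 1.87 ± 0.35 and Tyms 1.00 ± 0.24. Mcm3, Rfc2, Pcna and Mcm4 were not called, and Pcna had 2.15, 2.95 and 4.71 (WT) and 1.14, 1.65 and 1.501 (KO) in macrophage-like cells, a range that holds the tumour values.

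Microglia-like cells of tumour-bearing brains had 17 members higher than oligodendrocytes (24.6% of all genes were higher and 24.8% lower), 13 of them of mitosis, and 20 of 42 without the filter, against 13% of all genes. With cells of at least 500 genes kept, 9 were higher. Mki67 had 1.28, 0.577 and 2.59 (WT) and 2.46, 0.742 and 3.29 (KO) and a log2 difference of 3.88 ± 0.68, Nusap1 one of 3.501 ± 0.97 and Ccnb2 one of 3.08 ± 0.89. WT intermediate was the lowest in Mki67 and rests on 5 cells. In naive brains microglia-like cells had a mitosis level of 1.32 (1.02 to 1.69), and 1 cell of the WT naive library held 59 of the 64 UMIs. The KO naive library held 3 mitosis UMIs in 113 cells.

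Microglia-like cells of the 6 tumour-bearing libraries were tested against those of the 2 naive libraries with genotype as a covariate. Of the 42 genes 10 passed the filter, and 5 were higher and none lower (9.74% of 3243 genes were higher and 7.4% lower), with 15 of 42 higher without the filter, against 2.03% of all genes. With the numbered set as a term 4 were higher, without Tacc3 (3.40 ± 1.37, edgeR adjusted p = 0.106). The largest were Tacc3 (4.04 ± 1.29), Cenpe (4.02 ± 0.99), a kinetochore motor, and Cenpf (3.52 ± 0.82), beside Mki67 (3.08 ± 0.74) and Top2a (2.75 ± 0.63). Mki67 had 0.503 and 0 in the WT and KO naive libraries, below every tumour-bearing value. Top2a had 0.805 and 0.0349 there, and WT intermediate with 0 was below both. No member was called without the KO naive library, and 3 were without the WT early or the KO intermediate library. Pcna was not called (0.92 ± 0.39, edgeR adjusted p = 0.109).

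Transcripts of the tumour line were found in every type of the tumour-bearing libraries, and whether they came as free RNA, in doublets or from the cells themselves was not tested. The 6 followed were Col9a1, Col3a1, Col11a1, Dppa2, Etv2 and Gm14139, of which tumour cells held 40.8 UMIs per 10,000, macrophage-like cells 1.41, microglia-like cells 1.64, lymphocytes 0.909 and oligodendrocytes 1.84. If mitosis UMIs came along with these in the ratio found in tumour cells of the tumour-bearing libraries together, they would make up 3.13% of the mitosis level of lymphocytes, 14.2% of that of macrophage-like cells, 22.3% of that of microglia-like cells and 127% of that of oligodendrocytes. The macrophage-like cells at the mitosis limit held 1.59 of these transcripts per 10,000 and those below it 1.36. In lymphocytes the values were 0.791 and 1.01, and in microglia-like cells 1.74 and 1.63. They were 1.91 and 1.13 in endothelial cells, 4.97 and 3.59 in OPCs, 3.62 and 1.63 in astrocytes and 0.726 and 1.86 in oligodendrocytes, each with at most 10 cells at the limit. The values at and below the limit were thus close in the 3 immune types and further apart in the types with few such cells.

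Neuroblast-like cells, marked by the Dlx genes of the forebrain germinal zone, were the named naive type with the highest mitosis level, though no test was made on so few cells. In 21 naive cells the mitosis level was 66.2 (59.2 to 73.7), 105 in WT (9 cells) and 34.01 in KO (12 cells), and the replication level was 23.4 (19.3 to 28.03). Of 17 deep enough, 6 cells passed both limits, and those 6 held 90.9% of the mitosis UMIs. The 5 naive cells that clustered with the tumour had no UMI of the 6 tumour transcripts or of Cd44 but 38 UMIs of Dlx1, 21 of Dlx2 and 21 of Sox11, and all 5 passed both limits. Of the other tumour markers they held 17 UMIs of Sox2 and 8 of Vim, and of the other neuroblast markers 18 of Dlx6os1, 9 of Igfbpl1, 8 of Cd24a, 5 of Dcx and 1 of Stmn2. With markers of both kinds and none of the 6 tumour transcripts, they were left unnamed.

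Of the other types, endothelial cells had 8 members higher than oligodendrocytes (16.9% of all genes were higher and 20.3% lower), led by Nusap1 (4.18 ± 0.93), Ube2c (3.65 ± 0.86) and Cdc20 (2.91 ± 1.01). Their mitosis level was 16.9, 4.84 and 4.45 (WT) and 5.41, 3.06 and 3.55 (KO), highest in WT early (38 cells), and no member was called without WT early. Without the low-count filter 7 of 42 were higher, against 8.98% of all genes, and counts were 19 with Leiden clustering and 5 with cells of at least 500 genes kept. Naive endothelial cells stood at 0.476 (0.321 to 0.680). In WT early, mitosis UMIs that came with tumour transcripts in the ratio above would give 5.62% of the endothelial mitosis level.

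OPCs, found in tumour-bearing libraries, had a replication level of 11.1 (9.78 to 12.6) UMIs per 10,000 and a mitosis level of 6.41 (5.41 to 7.54). Of that mitosis level, UMIs that came with tumour transcripts in that ratio would give 82.8%. Replication UMIs outweighed mitosis UMIs less in OPCs (ratio of mitosis to replication 0.577) than in oligodendrocytes of the same libraries (0.393). Members called in them were 5 (12.4% of all genes were higher and 13.2% lower), namely Nusap1 (3.20 ± 1.20), Tpx2 (2.47 ± 0.75), Cenpf (2.00 ± 0.75), Mcm2 (1.99 ± 0.73) and Tipin (1.65 ± 0.44). Dendritic-like cells had 6 (14.2% of all genes were higher and 21.9% lower), with Nusap1 (4.65 ± 1.14), Mki67 (3.56 ± 0.96) and Hmmr (3.40 ± 1.07) the largest and Ube2c, Top2a and Cenpe the others. Without the filter 2 of 42 members were higher in OPCs (5.2% of all genes) and 7 in dendritic-like cells (5.44%), and OPCs had 1 without WT early, 2 without WT late and 3 without KO early. Astrocytes had none higher (12.4% of all genes) and 1 lower (15.6% of all genes), Pcna with -1.44 ± 0.52. Neuron-like cells had none in either direction (12.5% of all genes higher and 16.6% lower). At an unadjusted p of 0.05, 4 members passed in astrocytes and 2 in neuron-like cells, and DESeq2 called 2 higher in astrocytes and 0 in neuron-like cells. With Leiden clustering, where 1 cluster of 81 cells held markers of neurons and of neuroblasts, 10 members were higher in neuron-like cells, and 9 were in OPCs. With cells of at least 500 genes kept, 3 were higher in OPCs and 0 in dendritic-like cells. The members' shares in endothelial cells, OPCs, dendritic-like cells, astrocytes and neuron-like cells were near or under those of all genes or rested on few calls or 1 library, and are no result about these genes. Mural and fibroblast-like cells had a mitosis level of 22.9 in 30 cells, beside 74.9 UMIs per 10,000 of the tumour transcripts, mostly Col3a1. Whether these transcripts came from the cells themselves was not tested, nor was the part of tumour transcripts in that level.

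Other genes of the cycle were held in 4 lists beside the members. Without the filter, 37 of 42 further replication genes, 54 of 58 further mitosis genes, 15 of 16 drivers of S phase entry and 6 of 15 brakes were higher in tumour cells than in oligodendrocytes, against the 27.8% of all genes given above. Values of single genes are from the filtered fit, which kept 12 further replication genes, all 12 higher, Atad2 (4.24), Gmnn (3.39), the licensing inhibitor geminin, and Ezh2 (3.16) the most. Of 29 further mitosis genes kept, 24 were higher and 2 lower. Pbk, a mitotic kinase with 0 UMIs in oligodendrocytes, was at least 37.1-fold higher in tumour cells, a bound that gives it no rank. Cdca8 (5.93), a partner of Birc5, and Ckap2l (4.72) were the largest of the others. The 2 that were lower were Stmn1 (-2.80), a tubulin-binding protein, and Anln (-2.05), a scaffold of the cleavage furrow that mature oligodendrocytes also express. All 6 tested drivers of S phase entry were higher, Ccnd1 (3.33), Ccnd3 (3.19) and Myc (2.71) the most.

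Single brakes of the cycle were called in both directions. In tumour cells against oligodendrocytes Cdkn2a, the INK4a and ARF locus, gave 5.15 ± 0.47, Trp53 2.36 ± 0.30 and Cdkn1a (p21) 2.00 ± 0.39, while Gadd45b (-2.60), Rbl2 (-2.37), Cdkn1c (-1.58), Cdkn2d (-0.74) and Cdkn1b (-0.65) were lower. Against lymphocytes, Cdkn2a was again higher (3.86 ± 0.40), and Btg2 (-3.69), Gadd45b (-3.53), Btg1 (-3.40), Rbl2 (-2.23), Cdkn1b (-1.29) and Cdkn2d (-0.77) were lower. Against macrophage-like cells, Cdkn2a (4.52), Trp53 (0.73) and Cdkn2d (0.71) were higher and Btg2 (-4.93), Gadd45b (-4.48), Btg1 (-3.91), Cdkn1a (-2.90) and Cdkn1b (-0.97) lower. Btg1 and Btg2, which slow entry into S phase, were therefore lower in tumour cells than in both immune types. Among the drivers, tumour cells exceeded lymphocytes in Ccnd1 (4.26 ± 0.38), Ccnd3 (1.31) and Cdk4 (0.93) and had less Cdk6 (-2.60), the D cyclin kinase typical of blood cells.

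The immune types also had many of the other replication and mitosis genes higher than oligodendrocytes. Without the filter 32 of 42 further replication and 47 of 58 further mitosis genes were higher in lymphocytes, 25 and 39 in macrophage-like cells and 15 and 24 in microglia-like cells, where 16.6%, 20.3% and 13% of all genes were. In the filtered fit lymphocytes had 11 of 12 further replication genes higher than oligodendrocytes, most of all Gmnn (3.79), Atad2 (3.52) and the helicase Hells (3.25). Of 29 further mitosis genes 22 were higher, among them Pbk by at least 8.42-fold, a bound that gives it no rank. Cdca8 (5.18) and Hmgb2 (4.68) were the largest of the others. Macrophage-like cells had 8 and 17 higher, led by Gmnn (3.17), Atad2 (2.68) and Hells (1.74) and, Pbk aside, by Cdca8 (4.41) and Ckap2l (3.82). Pbk was at least 7.005-fold higher in macrophage-like cells, again without a rank. Microglia-like cells had 4 and 15 higher, led by Atad2 (2.93), Gmnn (1.98) and Hells (1.93) and, Pbk aside, by Cdca8 (3.86) and Ckap2l (3.71). Pbk was at least 6.17-fold higher in microglia-like cells, also without a rank. Anln, Stmn1 and the microtubule polymerase Ckap5 were lower than in oligodendrocytes in all 3 types, Anln by -5.11, -4.81 and -4.60 on the log2 scale. Among the drivers Cdk6 stood first in each, with 4.32 in lymphocytes, 2.55 in macrophage-like cells and 2.54 in microglia-like cells, followed by Ccnd2 and Myc in lymphocytes, Ccnd2 and Ccnd1 in macrophage-like cells and Myc and Ccnd1 in microglia-like cells.

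Of the further replication genes, tumour cells exceeded lymphocytes in Atad2 (0.72) and had less Lig1 (-0.85) and Nasp (-0.83). Of the further mitosis genes Anln (3.07), Pbk (2.02) and Cbx5 (1.77) were the most raised and Stmn1 (-0.90) and Lbr (-0.76) lower. Against macrophage-like cells 8 of 12 further replication genes were higher, Rpa2 (1.69) and Orc6 (1.61) among them. Of the further mitosis genes 27 were higher, Ckap2 (3.24), Anln (2.77) and Prc1 (2.61) the most, and none of either list was lower. Without the filter 10 of 42 and 21 of 58 of these lists were higher than in lymphocytes and none lower (20.8% of all genes were higher, which the replication list was near), so the lower calls of Lig1, Nasp, Stmn1 and Lbr were lost, and 26 of 42 and 52 of 58 were higher than in macrophage-like cells (26.7% of all genes). The drivers Ccnd3 (2.87), Myc (2.12), Ccnd1 (1.90) and Cdk4 (1.14) were higher and Cdk6 (-0.83) lower than in macrophage-like cells.

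Of 10 brakes tested, 4 were higher and 1 lower than in oligodendrocytes in lymphocytes, 5 and 3 in macrophage-like cells and 5 and 4 in microglia-like cells. Of all genes 26.5% and 26.7% were higher and lower in lymphocytes, 30.2% and 28.3% in macrophage-like cells and 24.6% and 24.8% in microglia-like cells, so counts of 10 genes are no result about the brakes as a group. Lymphocytes exceeded oligodendrocytes in Btg1 (4.34), Btg2 (3.44), Cdkn1a (2.34) and Trp53 (2.28) and were lower in Cdkn1c (-3.58). Macrophage-like cells exceeded them in Cdkn1a (4.90), Btg1 (4.85), Btg2 (4.69), Gadd45b (1.89) and Trp53 (1.63), and were lower in Cdkn1c (-2.75), Rbl2 (-2.36) and Cdkn2d (-1.45). Microglia-like cells had the same 5 higher, from Trp53 (1.73) and Gadd45b (1.55) to Btg2 (4.98), and Cdkn1c (-2.96), Rbl2 (-2.12), Cdkn2d (-1.76) and Cdkn1b (-1.42) lower. Against naive microglia-like cells, those of tumour-bearing brains were higher in Gadd45b (4.31 ± 0.60) and Cdkn1a (4.09 ± 0.50). Of the other lists, Ezh2 (3.01), Atad2 (2.58), Lig1 (2.08) and Nasp (1.84), Incenp (2.49), Smc4 (2.19), Tmpo (2.06) and Smc2 (2.03), and Ccnd1 (1.46) were higher there. Cells that held a brake and cells that held a member were not separated in these sums.

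Brakes were also called in the types with few members called. Endothelial cells exceeded oligodendrocytes in Btg2 (5.24), Cdkn1a (4.08), Cdkn1c (2.46), Btg1 (2.35) and Trp53 (1.36) and were lower in Rbl2 (-2.04). Dendritic-like cells were higher in Btg1 (5.33), Cdkn1a (4.55), Btg2 (4.07) and Gadd45b (2.45) and lower in Rbl2 and Cdkn1c. OPCs were higher in Trp53 (2.02) and lower in Gadd45b (-2.85) and Cdkn2d (-1.54), astrocytes were higher in Btg2 (2.19), and neuron-like cells were lower in Rbl2 (-3.24).

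Between hosts, no member was called in tumour cells, with KO compared with WT over the 6 tumour-bearing libraries and the stage as a block. All 42 genes were tested, 0 passed, and 0% of the 14338 genes did (quasi-likelihood test of edgeR, p adjusted by Benjamini-Hochberg). Unadjusted p-values were under 0.05 for 1 member and 940 genes, and DESeq2 called 0 members, with 55 genes higher and 12 lower. The summed mitosis level of tumour cells was 64.0, 59.9 and 63.3 (WT) and 50.5, 58.8 and 48.1 (KO), with means of 62.4 ± 2.24 (WT, SD, n = 3) and 52.5 ± 5.63 (KO, SD, n = 3). Every KO sum was below every WT sum, and as a sum over chosen genes it was given no test. The order within the numbered sets follows from that and adds nothing to it, and 1 of the sets holds a single pair. With the set as a term, which leaves 1 residual degree of freedom, 0 members and 54 genes were called. The replication level was 20.9, 22.6 and 23.6 (WT) and 21.3, 18.4 and 21.5 (KO), and there the groups overlapped.

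Log2 differences of the 42 genes, KO minus WT, ran from -0.46 to 0.34 with a median of -0.16, where the median of all genes was 0.00. The mitosis genes had a median of -0.22 and the replication genes one of -0.07. The member that passed unadjusted was Kif11, the spindle motor, with -0.46 ± 0.17 (edgeR adjusted p = 0.703). Mki67 gave -0.43 ± 0.19 (adjusted p = 0.795), Top2a -0.11 ± 0.20, Cdc20 -0.22 ± 0.20, Ccnb1 -0.36 ± 0.23 and Tyms -0.36 ± 0.17, while Cdk1 (-0.02 ± 0.19), Pcna (-0.09 ± 0.18) and Mcm5 (0.04 ± 0.20) were near 0. In 6 members, Prim1, Birc5, Tpx2, Nusap1, Kif11 and Tacc3, every KO library was below every WT library, as in 6.13% of all genes, and in none was every KO library above, as in 3.97%. The 6 genes come from the same libraries and are not separate observations of the hosts.

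The percent of tumour cells with at least 3 mitosis UMIs after thinning was 69.0, 59.7 and 71.5 (WT) and 66.9, 55.8 and 64.6 (KO), and with replication UMIs 47.3, 52.3 and 54.0 (WT) and 50.3, 42.2 and 52.0 (KO). Both overlapped between the genotypes, and the intermediate stage was the lowest of each genotype for mitosis. Within each stage the mitosis share was lower in KO than in WT, as the mitosis level was. The replication share was lower in KO at the intermediate and late stages and higher at the early stage. In the plot by genotype and stage the mitosis levels separate across all stages, while the mitosis shares are ordered by genotype only within a stage.

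In macrophage-like cells 37 of the 42 genes were tested between hosts and 0 were called (0.206% of 6304 genes), with 5 members at an unadjusted p of 0.05 and 0 by DESeq2. The share of all genes at that unadjusted limit is not given here, so the 5 are no result about the members. Higher among these 5 were Cdc20 (1.88 ± 0.76), Ube2c (1.53 ± 0.49) and Birc5 (0.90 ± 0.38), and lower were Pcna (-1.10 ± 0.32, edgeR adjusted p = 0.288) and Mcm2 (-0.97 ± 0.46). Pcna levels were given above, and its 3 KO values lay below its 3 WT values. Ube2c had 0.378, 0.118 and 0.266 (WT) and 1.11, 0.728 and 0.457 (KO), each KO value above each WT value. In 3 members every KO library was higher (Cdc20, Birc5 and Ube2c; 4.57% of all genes) and in 3 lower (Mcm2, Pcna and Pola1; 4.16%). With the numbered set as a term Pcna was called lower in KO (-1.10 ± 0.31, edgeR adjusted p = 0.0410), as were 80 genes either way, again with 1 residual degree of freedom. Mki67 had groups that overlapped.

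In lymphocytes the comparison rested on 5 sums, 2 of WT and 3 of KO, with 37 members tested and 0 called (0.023% of 4346 genes). WT late, with 4 lymphocytes, gave no sum, so with the stage as a block KO late had no WT partner. The genotype difference thus rested on the early and intermediate stages, with few residual degrees of freedom. The members had a median log2 difference of 0.80, where the median of all genes was 0.05. Of the mitosis levels given above, every KO one lay above every WT one, 2 of the WT libraries holding 6 and 4 lymphocytes, and as a sum over chosen genes it was given no test. At an unadjusted p of 0.05 there were 3 members, again without the share of all genes and so no result, and DESeq2 called 0. In microglia-like cells 4 members passed the filter and 0 were called (0.052% of 1923 genes). Unadjusted p-values were under 0.05 for 0 of these members, and DESeq2 called 0. Depth there was too low to test most members.

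Between stages, late and early libraries were compared with genotype as a covariate, 2 libraries against 2 with the intermediate pair in the fit. In tumour cells 0 of 42 members were called, as 0% of all genes, while unadjusted p-values were under 0.05 for 1 member and 1050 genes and 0 members by DESeq2. That member was Slbp, with 0.915 and 0.931 at the early and 0.678 and 0.562 at the late stage in WT and KO (-0.63 ± 0.21, edgeR adjusted p = 0.615). Mki67 gave -0.04 ± 0.23, Top2a -0.20 ± 0.24 and Pcna 0.14 ± 0.22. In macrophage-like cells 0 of 37 tested members were called (0.0793% of all genes), and 1 passed at an unadjusted p of 0.05 and 0 by DESeq2. In microglia-like cells 0 of 4 were called (0.364%), with 0 unadjusted and 0 by DESeq2. The microglia-like mitosis level was 8.31, 8.66 and 13.8 (WT) and 12.4, 9.11 and 15.3 (KO), higher in both late libraries than in the early library of the same genotype. The late libraries held 20 (WT) and 21 (KO) of these cells and the early ones 64 and 24. As a sum over chosen genes this level was given no test. A p that misses the threshold does not show equal levels, and with standard errors near 0.23 on the log2 scale in tumour cells small differences would not be seen.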

How the data were processed

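The authors deposited UMI counts per gene and cell barcode, not normalized, for 3000 barcodes in each of 8 libraries. They were made with the Drop-seq pipeline, and the submitters' processing notes name bcl2fastq 2.0, STAR and GRCm38. The members and the gene lists were chosen with earlier results of these data known. Of the 1000 deepest barcodes per library, cells with at least 1000 of the genes found in 30 or more cells were kept, following the study. Cells were clustered without cycle genes from 50 principal components by tSNE (Rtsne 0.17, perplexity 50) and HDBSCAN (scikit-learn 1.9.0, at least 19 cells), unassigned cells took the majority of 15 neighbours, and clusters were named by markers. The authors' cell names were not used, and a rebuilt name may differ from theirs. Doublets were kept, and their removal with Scrublet (scanpy 1.11.5) was an alternative. Scores in the top 5% were used instead in libraries where fewer than 0.5% were marked.

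UMIs were summed per library and type with at least 5 cells and tested with edgeR 4.0.16 (TMM, filterByExpr, quasi-likelihood, adjusted p under 0.05), checked first on simulated counts. The design with library, stage or genotype terms is given with each result. Fold changes are log2 with standard errors. Alternatives were DESeq2 1.42.0, no low-count filter, total UMIs without TMM, at least 10 cells per sum, at least 500 genes per cell, another tSNE seed, clustering on all genes, Leiden clustering (leidenalg 0.10.2), no stage block, no genotype covariate, unassigned cells or cells with at least 2 UMIs of the tumour transcripts left out, other depths and limits for the shares, and leaving out each library.

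Genes named with full values were Mcm5, Pcna, Rrm2, Tyms, Slbp, Mki67, Top2a, Cdk1, Ccnb1, Cdc20, Birc5 and Ube2c and the 3 members with the largest difference each way among those called. Of the other cycle lists the 3 largest each way and every called brake were named, except that 1 gene is not reported here. The numbered set of the libraries was a term of an added alternative only.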

Additional observations from a re-analysis of the deposited data

Results flagged for a closer look

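Of 64 groups of 4 to 10 libraries examined, 4 held a library that stood apart from the rest by Dixon's criterion, which by chance marks about 1 in 20 groups. The replication level of macrophage-like cells was 20.6 UMIs per 10,000 in WT late (24 cells), above the other libraries, of which the highest was 12.9. The mitosis level of endothelial cells was 16.9 in WT early (38 cells). In lymphocytes of WT intermediate (6 cells), Mki67 was the lowest at 0.497 UMIs per 10,000, and Top2a at 2.48.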

How the results depend on the processing

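Of the values recomputed, 716 stayed within 1.5 times (counts) or the spread between libraries (levels and shares) and 100 did not, and none of these changed sign. The median log2 difference of all tested genes in tumour cells, given above, did so with the DESeq2 size factors. The counts of members called in tumour cells, lymphocytes and macrophage-like cells against oligodendrocytes, in tumour cells against macrophage-like cells and between genotypes and stages stayed within 1.5 times under every alternative that gave a value, except that with the numbered set of libraries as a term, an alternative chosen after seeing the data, 1 member was called lower in macrophage-like cells of KO hosts. The set left no residual degree of freedom for the genotype test in lymphocytes. The cause of the changes below was not tested. Counts of members below are given without the share of all genes called under the same alternative. They show only how far a count moved and are no result about the members.

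With at least 500 genes per cell the members called higher than in oligodendrocytes numbered 9 in microglia-like cells, 5 in endothelial cells, 0 in dendritic-like cells, 3 in OPCs and 1 in astrocytes, and tumour cells against lymphocytes gave 11 higher and 1 lower. Leiden clustering gave 19 in endothelial cells, 10 in neuron-like cells and 9 in OPCs. Without cells holding tumour transcripts there were 8 members in microglia-like cells against naive ones, 3 in OPCs, and 2 higher and 0 lower in astrocytes. With doublets removed these were 3 in microglia-like cells and 8 in OPCs. Without the low-count filter there were 15 in microglia-like cells against naive ones, 2 in OPCs, 11 in tumour cells against lymphocytes, and 2 lower in astrocytes and 1 in neuron-like cells. Total UMIs gave 10 in OPCs, and 1 higher and 0 lower in astrocytes, DESeq2 2 and 0 there, sums of at least 10 cells 2 and 0, with 6 lower in tumour cells against lymphocytes. Another tSNE seed and leaving out unassigned cells each gave 1 higher in astrocytes.

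Leaving out 1 library at a time, the counts ran from 0 to 12 in endothelial cells, 1 to 4 in OPCs, 0 to 2 higher and 0 to 1 lower in astrocytes, 0 to 1 lower in neuron-like cells, 0 to 6 in microglia-like cells against naive ones, and 4 to 8 higher and 1 to 4 lower in tumour cells against lymphocytes. No paired analysis was possible because each group held 1 library and the labels give no numbers that join mice, so the stage served as the block. The genotype test in lymphocytes could not be fitted without some libraries or with 10 cells per sum.

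Shares of cells depend on the depth kept and on the limit. For mitosis they were 55.5% (1000 UMIs), 70.2% (2500 UMIs), 70.8% (at least 2), 52.0% (at least 5), 80.6% (unthinned) in tumour cells. They were 51.4% (2500 UMIs), 29.9% (at least 5), 51.4% (unthinned) in lymphocytes and 12.5% (1000 UMIs), 23.3% (2500 UMIs), 26.8% (at least 2), 11.8% (at least 5), 33.9% (unthinned) in macrophage-like cells. In microglia-like cells they were 18.4% (2500 UMIs), 19.7% (at least 2), 20.2% (unthinned), and in oligodendrocytes 7.11% (at least 2), 7.11% (unthinned). For replication they were 33.7% (1000 UMIs), 70.0% (2500 UMIs), 65.8% (at least 2), 26.0% (at least 5), 80.2% (unthinned) in tumour cells and 29.2% (1000 UMIs), 57.0% (2500 UMIs), 54.3% (at least 2), 25.5% (at least 5), 53.5% (unthinned) in lymphocytes. They were 13.4% (1000 UMIs), 31.2% (at least 2), 9.01% (at least 5), 42.7% (unthinned) in macrophage-like cells, 28.1% (2500 UMIs), 27.5% (unthinned) in microglia-like cells and 12.1% (2500 UMIs), 17.3% (at least 2), 21.3% (unthinned) in oligodendrocytes. At a median of 2597.5 to 5637.5 UMIs per cell, a share describes cells with detected UMIs and not all dividing cells.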
